A study of Homo sapiens with 8 samples.

Results

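The zinc finger genes of 2 stretches of chromosome 19, in bands 19p12 and 19q13.4, were followed in K-562 cells with altered dosage of TASOR or TASOR2. Members are genes with a symbol of ZNF and a number that start between 19 and 24 Mb or between 52 and 55 Mb (GENCODE 29, GRCh38). There are 80 such annotated genes among 645 with a symbol of this kind in the genome, 42 at 19p12 and 38 at 19q13.4. Of the 80, 70 are protein-coding and the others are pseudogenes and 1 non-coding antisense gene. In all, 16 members were listed in at least 1 of the 3 deposited gene tables, which together list 1221 genes, and 64 were listed in none.

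Total RNA came from K-562, an established human erythroleukaemia line. The altered groups were TASOR KO cells, TASOR KO cells expressing a FLAG-TASOR transgene, and parental wild-type cells expressing a FLAG-TASOR2 transgene. Each was compared with the same wild-type controls carrying a negative guide RNA, with 2 libraries a group. Per the labels' protocols, cells were transfected with CRISPR/Cas9 plasmids, sorted as single colonies, grown as clones, and transduced with lentivirus holding an empty puromycin vector or a transgene. The sources used here do not give how many clones stand behind a group, so the p-values cover the spread from library to library, which may be technical. No guide is named for the FLAG-TASOR2 cells, so guide treatment and transgene cannot be told apart in that comparison.

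The deposited tables give 1 value per gene and comparison and none per library. A gene is listed if its unadjusted p was under 0.05, its absolute log2 fold change over 1 and its log2 mean expression over 1. Fold changes are altered cells over control. Absence from a table does not place a gene at its control level, and how many of the 64 unlisted members were expressed enough to be tested is unknown. Of 11 marker genes of the cell line, HBE1 was listed as higher with FLAG-TASOR and HBZ as higher with FLAG-TASOR2. Their adjusted p-values in the authors' deposited F-test tables were 0.999 and 0.307. None of 6 lymphoid and fibroblast marker genes was listed (0 of 6 in each of the 3 tables), which does not give their level or their p, since a table holds no gene outside its thresholds. Of all genes tested, 1.92% were listed with TASOR KO, at most 1.87% with FLAG-TASOR and 6.31% with FLAG-TASOR2. With so few markers, these counts give no result about cell identity.

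Most genes in these clusters encode proteins with a KRAB domain and an array of C2H2 zinc fingers. The fingers bind DNA, often within transposable elements, and the KRAB domain recruits TRIM28, which brings the histone methyltransferase SETDB1 and leads to H3K9me3 and silencing. The zinc finger gene clusters of chromosome 19 themselves carry H3K9me3 in many human cells. TASOR is a scaffold of the human silencing hub (HUSH), which also works with SETDB1, and TASOR2 is its paralog.

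Promoters of the members differed in sequence between the 2 bands, and a few from each band are shown. RefSeq promoters (GRCh38.p14, 250 bases before to 50 after the start) were matched for 57 of the 80 members, among them 12 of the 16 listed. The stretches shown stop at the first base annotated to the gene in GENCODE 29 where that comes before the RefSeq start. All lie on chromosome 19. In the first 4, from 19p12, capitals mark TCCAATCAG, which contains a CCAAT box. In the other 3, from 19q13.4, capitals mark GATGCGCGCGCAATTTC and CAACCGATTTTGCTCTGC in ZNF528 and ZNF534, and ACCCGGAAG in ZNF528 and ZNF578. The 4 from 19p12 were not marked for these 3 words. All words were searched on both strands and were picked because they recur here, as the commonest 10-base word of 19p12 promoters (its first 9 bases in capitals), the commonest 9-base word of listed 19q13.4 promoters and the longest runs shared by ZNF528 and ZNF534. ZNF93 is shown from chr19:19900696-19900912 (plus strand), ZNF486 from chr19:20166964-20167213 (plus), ZNF208 from chr19:22010950-22011193 (minus) and ZNF257 from chr19:22052234-22052451 (plus). ZNF528 is shown from chr19:52397599-52397848, ZNF534 from chr19:52428898-52429147 and ZNF578 from chr19:52453303-52453552 (all plus).
ZNF93: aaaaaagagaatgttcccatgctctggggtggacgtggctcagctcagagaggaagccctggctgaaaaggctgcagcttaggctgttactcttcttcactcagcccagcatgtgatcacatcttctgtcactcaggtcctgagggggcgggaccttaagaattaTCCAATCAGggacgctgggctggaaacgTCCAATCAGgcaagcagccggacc
ZNF486: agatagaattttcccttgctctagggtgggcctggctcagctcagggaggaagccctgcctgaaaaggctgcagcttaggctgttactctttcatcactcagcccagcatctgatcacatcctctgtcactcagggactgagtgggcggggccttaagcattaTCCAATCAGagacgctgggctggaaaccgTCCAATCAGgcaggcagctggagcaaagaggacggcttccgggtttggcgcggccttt
ZNF208: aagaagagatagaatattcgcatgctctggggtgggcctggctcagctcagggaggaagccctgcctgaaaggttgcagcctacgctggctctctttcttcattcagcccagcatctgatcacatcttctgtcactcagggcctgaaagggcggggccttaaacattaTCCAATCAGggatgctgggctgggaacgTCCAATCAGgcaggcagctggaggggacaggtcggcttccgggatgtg
ZNF257: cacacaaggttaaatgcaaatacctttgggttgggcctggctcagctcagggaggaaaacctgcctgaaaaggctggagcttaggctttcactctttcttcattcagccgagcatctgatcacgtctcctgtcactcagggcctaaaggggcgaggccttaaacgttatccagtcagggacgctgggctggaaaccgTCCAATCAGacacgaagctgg
ZNF528: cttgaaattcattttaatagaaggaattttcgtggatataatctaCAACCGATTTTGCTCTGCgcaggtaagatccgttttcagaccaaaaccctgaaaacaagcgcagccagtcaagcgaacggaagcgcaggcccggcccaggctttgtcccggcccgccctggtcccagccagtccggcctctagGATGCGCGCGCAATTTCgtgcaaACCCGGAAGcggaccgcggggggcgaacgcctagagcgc
ZNF534: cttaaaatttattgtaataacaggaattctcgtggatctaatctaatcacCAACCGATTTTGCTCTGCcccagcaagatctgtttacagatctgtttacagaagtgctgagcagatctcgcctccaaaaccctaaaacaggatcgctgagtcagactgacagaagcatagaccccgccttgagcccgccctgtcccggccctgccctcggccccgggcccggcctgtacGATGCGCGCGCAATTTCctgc
ZNF578: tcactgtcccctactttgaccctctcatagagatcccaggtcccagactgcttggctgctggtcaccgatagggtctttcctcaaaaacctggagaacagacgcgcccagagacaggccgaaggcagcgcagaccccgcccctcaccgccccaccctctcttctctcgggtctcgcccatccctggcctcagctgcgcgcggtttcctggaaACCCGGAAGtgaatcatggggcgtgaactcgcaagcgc

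In the 300-base window, the longer word TCCAATCAGG was found in 25 of 28 promoters of 19p12 members and in 0 of 29 of 19q13.4 members, against 0.388% of 27305 RefSeq promoters. A CCAAT box (CCAAT) was found in all 28 at 19p12 and in 8 at 19q13.4, against 35.7% of all promoters. The 19q13.4 promoters held a median of 25 CG dinucleotides, against 10 at 19p12 and 14 over all promoters. At 19p12 the CCAAT box was present in 6 of 6 listed and 22 of 22 unlisted members, and the median CG count was 10 in both. At 19q13.4 the median CG count was 23.5 for listed and 25 for unlisted members, and the CCAAT box was present in 0 of 6 listed and 8 of 23 unlisted ones. GATGCGCGCGCAATTTC was found in 3 promoters of all 27305, those of ZNF528, ZNF528-AS1 and ZNF534, and the ZNF528 and ZNF528-AS1 windows overlap, so they count as 1 region. Each match is a description of these letters and not a binding site.

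**Figure D1:**
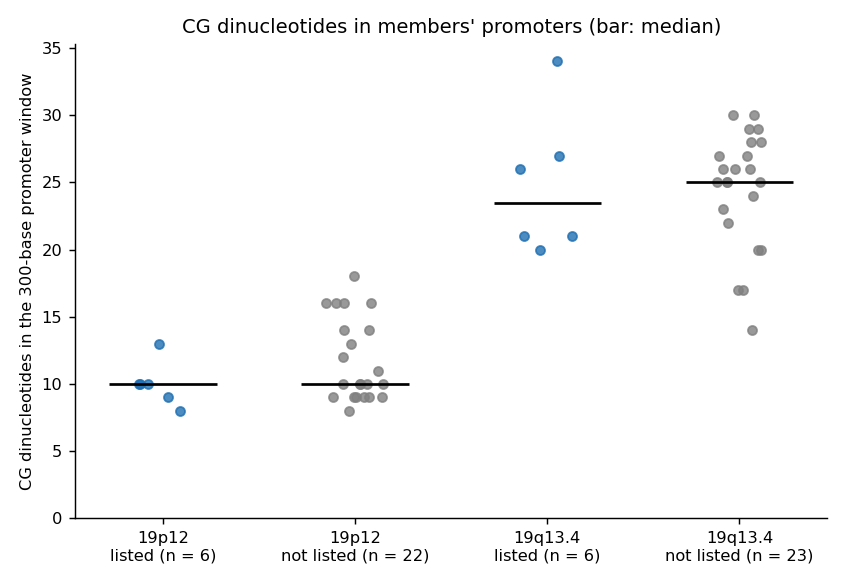
CG dinucleotides in the 300-base promoter window (vertical axis) for listed (blue) and unlisted (grey) members of each band, with the median as a bar and points spread sideways for legibility. The 19p12 promoters lie between 8 and 18 CG and the 19q13.4 promoters between 14 and 34, with listed and unlisted members of a band intermixed.

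Wild-type cells expressing FLAG-TASOR2, the first comparison described here, showed the widest listing of these genes. The authors' deposited table held 15 of the 80 members, each listed as higher. That is 18.8% of annotated members, beside 6.31% of all 14001 genes tested, with 2.56% in the higher direction and 3.76% in the lower one. The listed genes as a whole leaned the other way, with 358 of 884 (40.5%) higher and 526 lower. Both bands took part, with 7 of 42 at 19p12 and 8 of 38 at 19q13.4. The denominators differ, since some annotated members may have been too low to test. No member passed an adjusted p of 0.05 in the deposited edgeR-type F-test (0 of 15, all with an unadjusted p under 0.05), where the table as a whole had 5 such genes, 0.0357% of those tested. The rest of the text therefore speaks of genes listed as higher or lower.

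Ribosomal, mitochondrial and U1 small nuclear RNAs were also listed as higher in FLAG-TASOR2 cells, in libraries made after ribosomal RNA depletion. The authors' deposited table gave log2 fold changes of 5.90 for MT-RNR1 (approximate SE 2.18) and 5.60 for MT-RNR2 (1.98), the mitochondrial ribosomal RNAs. About 11256 CPM of MT-RNR1 in FLAG-TASOR2 cells stood against 188 CPM in controls. Of 13 mitochondrial protein-coding genes 9 were listed, all higher, by 1.09 to 2.01 in the authors' deposited table. Of 15 U1 genes (named RNU1 or RNVU1 with a number in GENCODE 29) 5 were listed, all higher, by up to 1.44 in that table. U1 entries outside this set were also listed as higher, RNU1-28P at 1.38 and RNVU1-28 at 1.47 among them. Of all genes tested, 2.56% were listed as higher with FLAG-TASOR2. RNA5-8SN2, one of several near-identical copies of the 5.8S ribosomal RNA gene among which reads can be split, was also listed as higher, and another copy, RNA5-8SN5, as lower in TASOR KO cells. With FLAG-TASOR, MT-RNR2 was at 1.02 in the authors' deposited table (approximate SE 0.25). None of the 13 mitochondrial protein-coding genes or of the 15 U1 genes was listed in the other tables (0 of 13 and 0 of 15 in each). Of all genes tested, those tables listed 1.92% with TASOR KO and at most 1.87% with FLAG-TASOR. The part of these RNAs in the members' values was not tested.

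TASOR2 itself was listed as higher in FLAG-TASOR2 cells, at 2.26 on the log2 scale (approximate SE 0.27) per the authors' deposited table. The median log2 fold change of the 15 listed members was 1.79, beside 1.83 over all genes listed as higher. Median log2 mean expression was 3.03 for the members and 3.05 for the table. Members and other listed genes passed the same thresholds, so the closeness of these medians is no result about the members. By band, the members' median log2 fold change was 1.62 at 19p12 and 2.76 at 19q13.4. The 19q13.4 median includes 4 adjacent members at 3.17 to 7.21, described below. Over the 11 listed members of both bands outside that run, the median was 1.62. The difference between the bands was not tested.

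**Figure D2:**
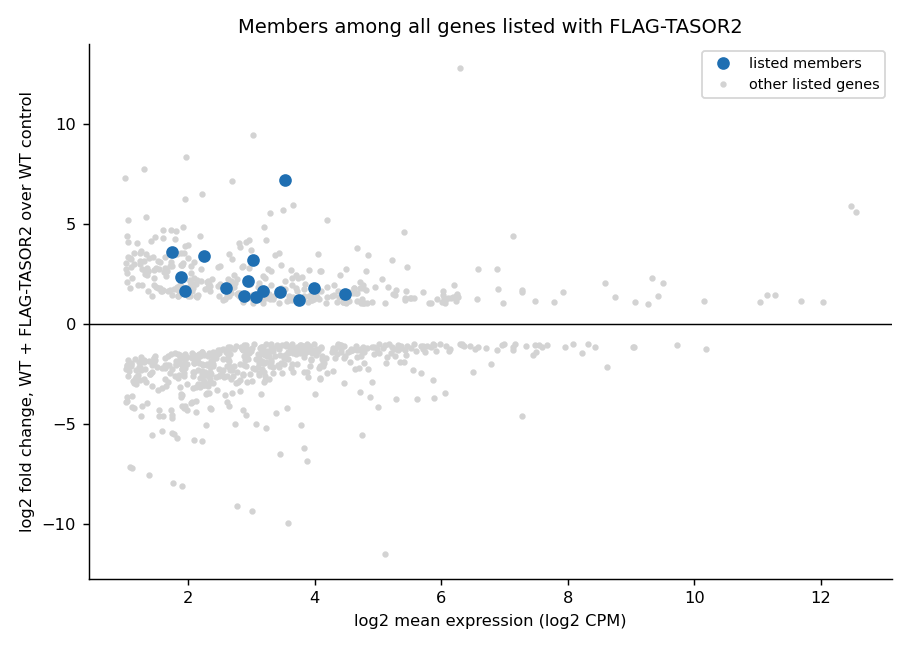
Log2 fold change of wild-type cells with FLAG-TASOR2 over wild-type controls (vertical axis) against log2 mean expression (horizontal axis) for the 884 listed genes, with the 15 members in blue. All 15 lie above 0, most between 1.19 and 2.34, and ZNF534 stands at 7.21.

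The 4 largest log2 fold changes belonged to 4 members that follow each other on the chromosome with no other member between them. ZNF528-AS1, ZNF528, ZNF534 and ZNF578 span 123 kb of 19q13.4, from 52388842 to 52512154, with 3 annotated pseudogenes inside the span and none of those listed. AC010332.1 overlaps ZNF528-AS1, and AC010332.2 and AC022150.3 overlap ZNF578, each on the opposite strand, so reads there could belong to either gene if strand was not used in counting. Their log2 fold changes lay between 3.17 and 7.21 in the authors' deposited table, while the other 11 listed members lay between 1.19 and 2.34. The 2 members on either side, ZNF880 and ZNF808, were not listed.

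ZNF534 encodes a C2H2 zinc finger protein and lies at 52429187 to 52452315 on the plus strand. From the deposited values its level was about 23.0 CPM in FLAG-TASOR2 cells and about 0.155 CPM in control cells. The log2 fold change was 7.21 per the authors' deposited table (approximate SE 0.82, 95% interval 5.20 to 9.23). Its adjusted p of 0.109 in the authors' deposited F-test table was the smallest of any member, and it ranked 15 of 884 by p. The control level is close to 0 and the depth is unknown, so the size of this fold rests on few control reads. No 50-base word of its longest transcript occurs in a transcript of another gene, and no annotated gene overlaps it.

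ZNF528 and its antisense neighbour start back to back, 82 bases apart, and share the promoter region shown above. ZNF528-AS1, a non-coding transcript at 52388842 to 52397766 on the minus strand, stood at about 6.20 CPM in FLAG-TASOR2 cells and 0.522 CPM in controls. Its log2 fold change was 3.57 (approximate SE 0.64, 95% interval 2.00 to 5.14), with an adjusted p of 0.171 in the authors' deposited F-test table. ZNF528, a protein-coding gene at 52397849 to 52418412 on the plus strand, stood at about 14.7 CPM in FLAG-TASOR2 cells and 1.63 CPM in controls. Its log2 fold change of 3.17 per the authors' deposited table had a wide interval (approximate SE 1.15, 95% interval 0.37 to 5.98), and its adjusted p in that F-test table was 0.358. Their annotations do not overlap each other. ZNF578, protein-coding, at 52453576 to 52512154, stood at about 8.68 CPM in FLAG-TASOR2 cells and 0.840 CPM in controls, a log2 fold change of 3.37 per the authors' deposited table (SE about 1.07).

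Further along 19q13.4 the deposited fold changes of the listed members were smaller. Their intervals overlap those of ZNF528 and ZNF578, and the difference was not tested. The folds of ZNF528-AS1 and ZNF578 also rest on low control levels, about 0.522 and 0.840 CPM. ZNF665 (53159213 to 53193386) had a log2 fold change of 2.34 per the authors' deposited table (SE about 0.85), and ZNF677 (53235381 to 53254898), whose promoter is known to be methylated in some cancers, had 1.79 (0.69). Both intervals came close to 0, with lower bounds of 0.25 for ZNF665 and 0.11 for ZNF677. In ZNF665, 11.9% of the 50-base words of the longest transcript also occur in another gene, so part of its reads could be shared. The largest share, 6.37%, is with AC092070.1, which overlaps ZNF665 on the opposite strand and matters if strand was not used in counting. AC092070.3 overlaps ZNF677 on the opposite strand.

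At 19p12 the 7 members listed with FLAG-TASOR2 were all higher, by log2 fold changes of 1.36 to 2.14 in the authors' deposited table. ZNF93 is known for binding and repressing primate LINE-1 elements and lies at 19900913 to 19963464. It stood at about 13.8 CPM in FLAG-TASOR2 cells and 4.49 CPM in controls, a log2 fold change of 1.62 per the authors' deposited table (SE about 0.38, 95% interval 0.68 to 2.55). Its adjusted p was 0.213 in the authors' deposited F-test table. ZNF91, another member at 19p12, known for repressing SVA elements, was not listed in any table.

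ZNF208 (21932958 to 22010949) encodes a very long finger array, with 36 C2H2 fingers counted in its longest open reading frame, the most among listed members. It stood at about 24.7 CPM in FLAG-TASOR2 cells and 7.04 CPM in controls, and its log2 fold change was 1.81 per the authors' deposited table (approximate SE 0.43). It shares more sequence with its paralogs than any other listed member, since 15.1% of its 50-base words occur in another gene and 10.3% in ZNF676 alone. ZNF66 (20776304 to 20807322) and ZNF728 (22975468 to 23003176) had log2 fold changes of 1.40 (approximate SE 0.52) and 1.66 (0.67) in the authors' deposited table. ZNF728 was at the edge of the list, with a lower interval bound of 0.0046 and rank 882 of 884 by p. For ZNF66 and ZNF728 the shared words came to 11.0% and 10.0%.

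**Figure D3:**
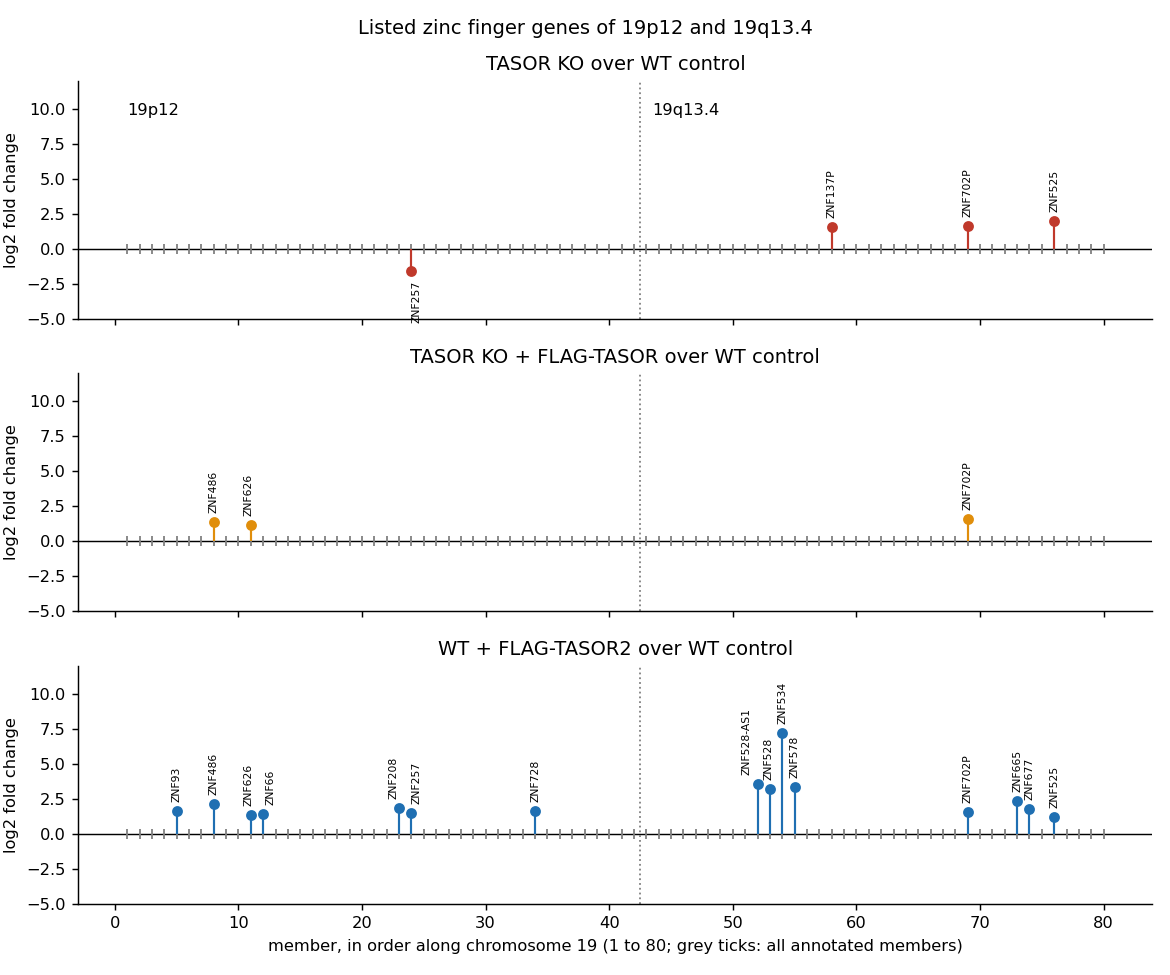
Log2 fold change over wild-type control (vertical axis) for listed members, placed by their order among the 80 annotated members along chromosome 19 (horizontal axis), in 1 panel for each altered group. Grey ticks are all members and the dotted line parts 19p12 from 19q13.4. With FLAG-TASOR2 all 15 points are above 0 and the 4 tallest stand side by side.

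TASOR loss was the second comparison, and it listed fewer of these genes. TASOR itself was listed as lower in TASOR KO cells at -1.08 on the log2 scale (approximate SE 0.23) per the authors' deposited F-test table, with an adjusted p of 1.00. Of the 80 members, 3 were listed as higher and 1 as lower, in all 5.00% of them, beside 1.92% of the 13992 genes tested. Higher ones made up 3.75% of members, beside 0.979% of genes tested, and 0.936% of genes tested were lower. None passed an adjusted p of 0.05 in the deposited edgeR-type F-test (0 of 4, all at an unadjusted p under 0.05), beside 0.00715% of genes tested. All 3 higher members lie at 19q13.4, and the lower one is at 19p12.

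ZNF525 (53365693 to 53392217), annotated as protein-coding, had the smallest p of the members in TASOR KO cells and ranked 20 of 268. Its level was about 32.1 CPM in TASOR KO cells and 7.96 CPM in controls. The log2 fold change was 2.01 (approximate SE 0.33, 95% interval 1.17 to 2.85), with an adjusted p of 0.937 in the authors' deposited F-test table. With FLAG-TASOR2 the same gene stood at about 18.8 CPM, against 8.23 CPM in controls, a log2 fold change of 1.19 per the authors' deposited table (SE about 0.36). The adjusted p with FLAG-TASOR2 was 0.286 in that F-test table. The 2 intervals overlap, and the difference between them was not tested. Its annotation overlaps that of ZNF765 on the same strand, so reads in the overlap could be assigned to either gene.

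ZNF702P, a transcribed pseudogene at 52968251 to 53037898, was the 1 member listed in all 3 tables, and its values were close to each other. It stood at about 21.5 CPM in TASOR KO cells, 18.4 CPM in TASOR KO cells with FLAG-TASOR and 16.3 CPM in FLAG-TASOR2 cells. The control level computed from the same tables was 6.75, 6.11 and 5.45 CPM. Its log2 fold changes were 1.67 in TASOR KO, 1.59 in TASOR KO with FLAG-TASOR and 1.59 in FLAG-TASOR2 cells in the authors' deposited tables (approximate SE 0.32, 0.34 and 0.38). Its adjusted p-values in the authors' deposited F-test tables were 1.00 in TASOR KO, 0.999 in TASOR KO with FLAG-TASOR and 0.213 in FLAG-TASOR2 cells. All 3 are set against the same control libraries, so the repeat is not independent. ZNF702P shares 12.2% of its 50-base words with other genes and overlaps annotated genes on both strands, ERVV-1 among them. ZNF137P, a transcribed pseudogene at 52588505 to 52597345, was listed as higher in the TASOR KO table and in neither other table. It stood at about 5.61 CPM in TASOR KO cells and 1.84 CPM in controls. Its log2 fold change was 1.61 (approximate SE 0.63, 95% interval 0.025 to 3.19), with an adjusted p of 1.00 in the authors' deposited F-test table. It overlaps ZNF83 on the opposite strand.

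The lower member in TASOR KO cells was ZNF257, a C2H2 zinc finger gene at 22052452 to 22091480, and it is the only member listed in opposite directions. Its level was about 5.01 CPM in TASOR KO cells and 15.2 CPM in controls, and about 32.9 CPM in FLAG-TASOR2 cells, against 11.9 CPM in controls from that table. The log2 fold change was -1.60 in TASOR KO cells (approximate SE 0.43, 95% interval -2.67 to -0.52) in the authors' deposited table. In FLAG-TASOR2 cells it was 1.47 (approximate SE 0.27, 95% interval 0.80 to 2.14) in the authors' deposited table. The intervals lie on opposite sides of 0 and do not overlap. This follows from the listing of ZNF257 in opposite directions, since each interval rests on the same F and p as the listing. The direct difference between the 2 altered groups was not tested. Neither value passed adjustment, with adjusted p-values of 1.00 in TASOR KO and 0.176 in FLAG-TASOR2 cells in the authors' deposited F-test tables. Only 2.90% of its 50-base words occur in another gene.

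**Figure D4:**
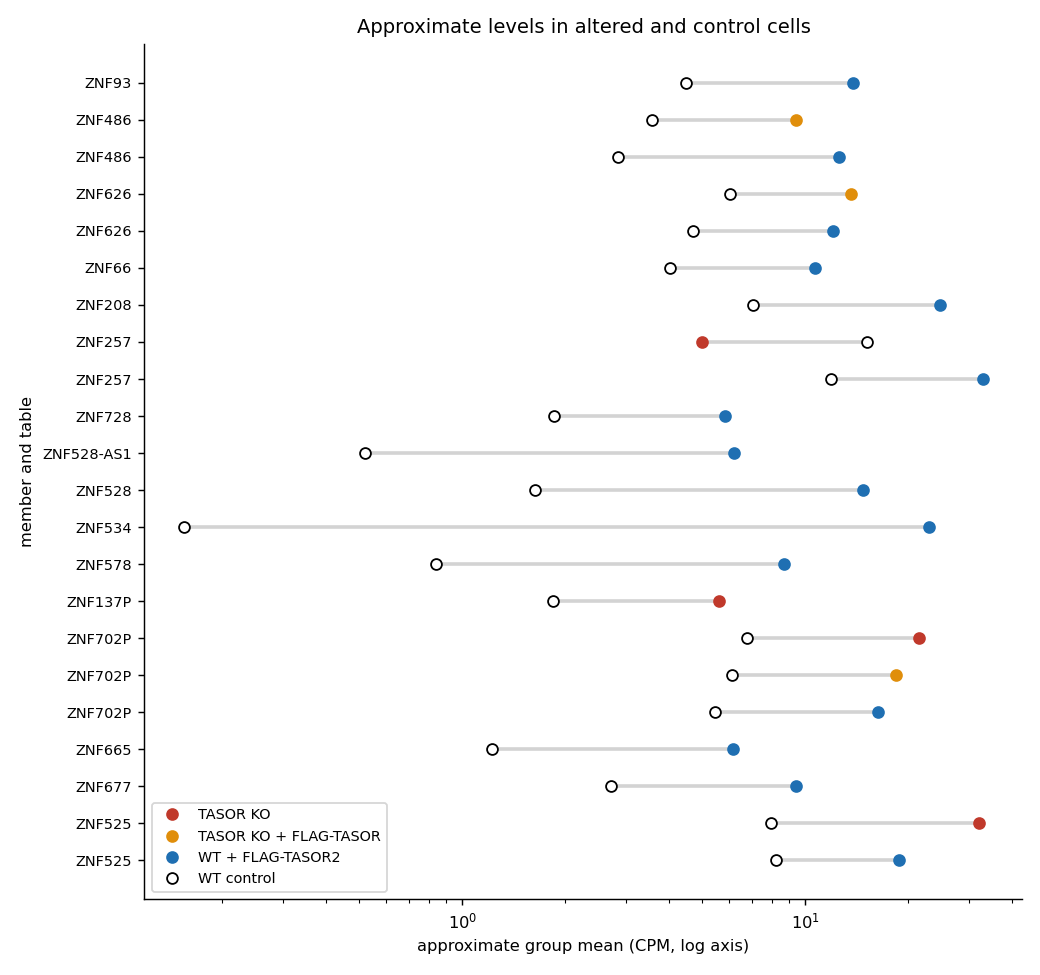
Approximate group means in CPM (log axis) for each listed member and table, with the altered cells as filled points coloured by group and wild-type controls as open points, joined by a grey line. ZNF257 in TASOR KO cells is the 1 case in which the filled point lies left of the open one, and ZNF534 has the longest line, with 23.0 CPM in FLAG-TASOR2 cells and 0.155 CPM in controls.

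Knockout cells expressing FLAG-TASOR, the third comparison, had 3 members listed, all higher. These are 3.75% of annotated members, beside at most 1.87% of the at least 13957 genes tested in either direction, 0.609% higher and 1.26% lower. None passed an adjusted p of 0.05 in the deposited edgeR-type F-test (0 of 3, all at an unadjusted p under 0.05), and no gene of that table did. TASOR is not in that table, so the deposited values do not show the level that the transgene gave. Besides ZNF702P the members were ZNF486 and ZNF626, both protein-coding genes at 19p12. Neither is listed in the TASOR KO table and both are listed in the FLAG-TASOR2 table.

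ZNF486 (20167228 to 20200490) stood at about 9.41 CPM in TASOR KO cells with FLAG-TASOR, against 3.58 CPM in controls. In FLAG-TASOR2 cells it stood at about 12.5 CPM, against 2.85 CPM in controls. Its log2 fold changes were 1.39 with FLAG-TASOR (approximate SE 0.53) and 2.14 with FLAG-TASOR2 (0.51) in the authors' deposited tables. ZNF626 (20620061 to 20661596) stood at about 13.6 CPM with FLAG-TASOR and 12.1 CPM with FLAG-TASOR2, against 6.04 and 4.70 CPM in controls from the same tables. The log2 fold changes were 1.17 with FLAG-TASOR (0.45) and 1.36 with FLAG-TASOR2 (0.46) in the authors' deposited tables. Adjusted p-values in the authors' deposited F-test tables were 0.999 for both genes with FLAG-TASOR, and 0.213 for ZNF486 and 0.326 for ZNF626 with FLAG-TASOR2. With FLAG-TASOR the lower interval bounds were 0.066 for ZNF486 and 0.044 for ZNF626, close to 0. ZNF257, ZNF137P and ZNF525, listed in TASOR KO cells, were not listed with FLAG-TASOR, and without a value there no difference between the 2 groups can be given.

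**Figure D5:**
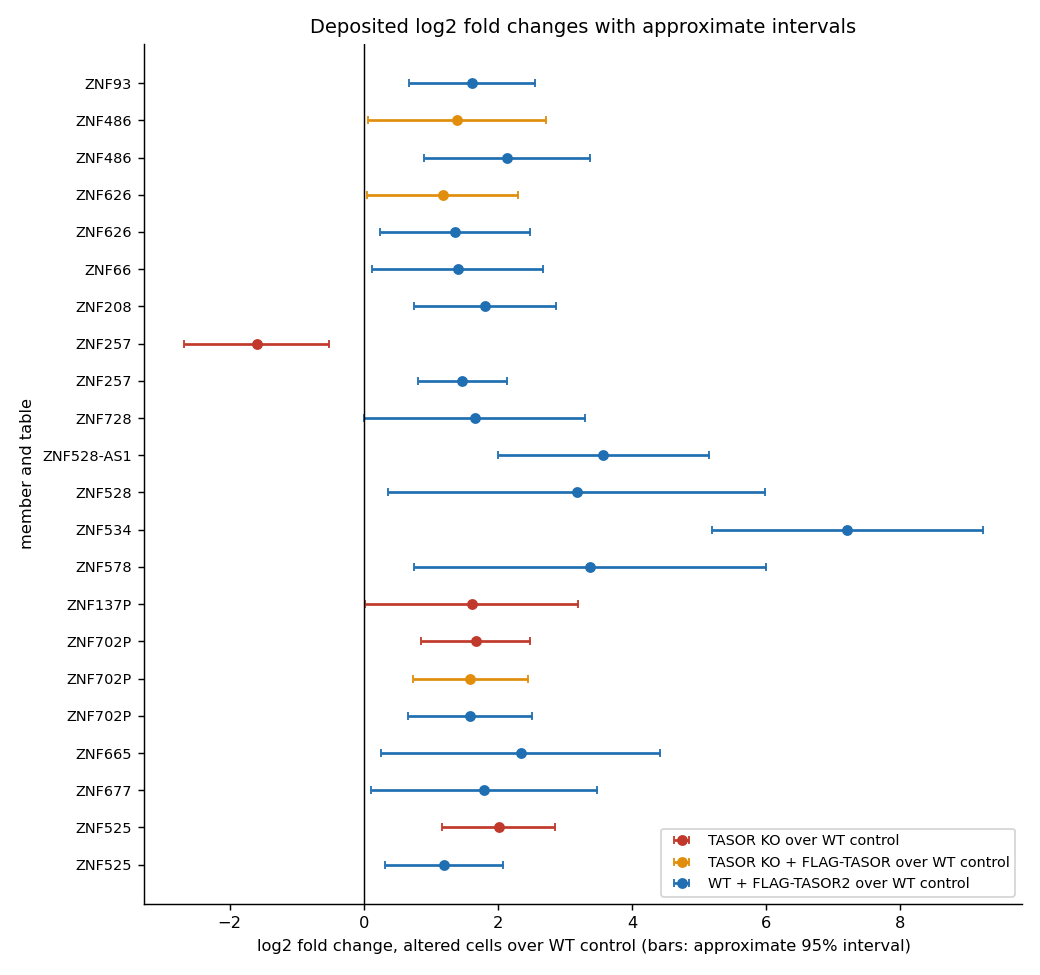
Log2 fold change of altered cells over wild-type control (horizontal axis) for each listed member and table, with approximate 95% intervals as bars and colours for the altered group. ZNF702P has 3 intervals that almost coincide, and the 2 intervals of ZNF257 lie on opposite sides of 0. Every interval excludes 0 because only genes with an unadjusted p under 0.05 in the deposited F-test were listed.

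The listed genes of the windows without a ZNF symbol were 3 non-coding genes at 19p12, of which AC011447.3 and AC011447.7 lie at or near ZNF486. AC011447.3, an antisense gene on the minus strand, spans all of ZNF486 and also overlaps the unlisted member ZNF90. It was higher in TASOR KO at 2.72 (approximate SE 0.53), with FLAG-TASOR at 2.26 (0.59) and with FLAG-TASOR2 at 3.26 (0.51) in the authors' deposited tables. AC011447.7, inside it and outside ZNF486, was at 2.37 (0.49), 1.73 (0.45) and 2.22 (0.44) in the same order in the authors' deposited tables. The sources used here do not say whether strand was used in counting, so reads of ZNF486 and AC011447.3 cannot be told apart where they overlap. AC074135.1, which lies far from ZNF486 and overlaps the unlisted member ZNF730 on the same strand, was listed with FLAG-TASOR2 alone at 1.41 (0.58) in the authors' deposited table. None of the 77 protein-coding genes of the windows without a ZNF symbol was listed (0 of 77 in each table). How many of the 77 were tested is unknown, and at 1.92% listed with TASOR KO and at most 1.87% with FLAG-TASOR the count of 0 is near the background in those tables. The background with FLAG-TASOR2 was 6.31%.

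Distal zinc finger genes of chromosome 19, from 57 Mb on, were listed in a larger share than members in TASOR KO and FLAG-TASOR2 cells. In TASOR KO cells, 4 of the 80 members (5.00%) were listed, 3 higher and 1 lower. Of 44 annotated distal zinc finger genes, 14 (31.8%) were listed there, all higher. With FLAG-TASOR2 it was 15 of 80 members (18.8%) and 14 of 44 distal genes (31.8%), all higher. With FLAG-TASOR it was 3 of 80 (3.75%) and 2 of 44 (4.55%). Among the 521 other annotated ZNF genes, FLAG-TASOR2 cells had 10 listed as higher and 7 as lower. TASOR KO cells had 4 higher and 2 lower, and TASOR KO cells with FLAG-TASOR 0 higher and 1 lower. Of all genes tested, 6.31% were listed with FLAG-TASOR2, 1.92% in TASOR KO and at most 1.87% with FLAG-TASOR. How many genes of each set were tested is unknown. The values of the sets are counts of listed genes, and no test of the difference between the sets was made.

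Of 10 genes of the HUSH complex and its effectors, the 2 listed were the manipulated genes themselves, TASOR as lower in TASOR KO cells and TASOR2 as higher in FLAG-TASOR2 cells. Of 22 genes of the KRAB repression pathway, TRIM28, SETDB1 and the HP1 genes CBX1, CBX3 and CBX5 among them, none was listed (0 of 22 in each of the 3 tables). With 1.92%, at most 1.87% and 6.31% of all genes tested listed in the TASOR KO, FLAG-TASOR and FLAG-TASOR2 tables, a count of 0 in a list of this size is near the background and no result about the list. In bulk RNA, a higher level in every cell and a high level in some cells cannot be told apart.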

How the data were processed

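Ribosomal RNA-depleted total RNA of K-562 cells was sequenced in 8 libraries, 4 groups of 2. Per the submitters' processing notes, the tools were edgeR, DESeq2, Salmon and STAR 2.7.8 and the build hg38, with no role given for each. The authors' deposited tables give for each gene, per the file headers, its log2 fold change, log2 mean expression (taken as log2 CPM), F statistic (a score), p-value and adjusted p-value. The column names match edgeR's quasi-likelihood output, though the notes do not assign a tool to these tables.

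The tables list only genes with p under 0.05, an absolute log2 fold change over 1 and a log2 mean expression over 1, as checked on the values. Depth per library is unknown from them, and no model was refitted. Genes tested numbered 13992 and 14001 by dividing adjusted by unadjusted p, and at least 13957, from row numbers, for the FLAG-TASOR table. Adjusted p-values are the authors', over all genes tested.

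Members were matched by Ensembl identifier to GENCODE 29 (GRCh38, the same assembly as hg38) with Python 3.11.15. Approximate SEs were obtained by dividing the size of the log2 fold change by the root of F. The 95% intervals use degrees of freedom recovered from F and p (median 5.36, 5.34 and 6.01 in the TASOR knockout, FLAG-TASOR and FLAG-TASOR2 tables). Group levels take the log2 mean expression as the log2 of the mean of both groups. Over 99 genes shared by the knockout and FLAG-TASOR2 tables, control levels computed from both differed by a median of 0.134 log2 units in size. Among members in both, ZNF257 (15.2 and 11.9 CPM) and ZNF702P (6.75 and 5.45 CPM) differed by more than that median. ZNF525 (7.96 and 8.23 CPM) differed by less. Without values per library, the accuracy of these approximate SEs, intervals and group levels was not tested. Promoters came from RefSeq (GRCh38.p14). Members and lists were chosen with earlier results of these data known. All listed members are accounted for. Full values go to those listed in 2 or 3 tables, to the 5 with the smallest p per table, and to the highest and lowest.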

Additional observations from a re-analysis of the deposited data

How the results depend on the processing

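Values per library are not held, so depth limits are unknown and no fit without a replicate could be run. No paired analysis was possible because the tables have no column per library. The settings select among the same deposited fold changes, so no member's direction could change. At an unadjusted p under 0.01 the listed members numbered 2 in TASOR KO, 1 with FLAG-TASOR and 7 with FLAG-TASOR2. At an absolute log2 fold change over 1.5 FLAG-TASOR kept 1. With protein-coding members only, TASOR KO had 2, whose median was 0.21. At 19p12 alone TASOR KO had 1 member, at -1.60, and FLAG-TASOR2 had 7. At 19q13.4 alone FLAG-TASOR had 1, and FLAG-TASOR2 had 8 with a median of 2.76. These differences follow from the smaller sets of members. At an adjusted p threshold of 0.2, FLAG-TASOR2 had 3 members (ZNF534, ZNF528-AS1 and ZNF257). Chosen after seeing the data, counting members less than 100 kb apart as 1 locus gave 10 loci for FLAG-TASOR2, and leaving out the 4 adjacent members gave a median of 1.62. Windows widened by 1 Mb changed no count.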

Other observations

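The number of C2H2 fingers, counted in the longest open reading frame of GENCODE transcripts by the spacing of the paired cysteines and histidines, had the same median in listed and unlisted members. The 13 listed protein-coding members had a median of 13 fingers (8 to 36) and the 57 unlisted ones a median of 13 (0 to 34). Median gene span of protein-coding members was 39.0 kb for listed and 35.9 kb for unlisted ones at 19p12, and 24.8 kb for listed and 31.6 kb for unlisted ones at 19q13.4. None of these differences was tested.

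The word ACCCGGAAG, picked because listed members share it, was found in 6 of 6 promoters of listed 19q13.4 members with a RefSeq promoter and in 12 of 23 of unlisted ones, beside 1.17% of all promoters. At 19p12 it was found in 6 of 28 promoters, 2 of 6 listed and 4 of 22 unlisted. Of the 6 listed 19q13.4 promoters, the windows of ZNF528 and ZNF528-AS1 overlap, and the word was chosen on these promoters, so no test was made.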
